A study of Homo sapiens with 6 samples.

Results

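The interferon response and antigen presentation genes are a list of 39 genes of known function, drawn up with earlier results of these data known: interferon regulatory factors and STAT2, interferon-stimulated genes, and genes of antigen presentation by MHC class I. A gene with several probe sets of its own was read from the brightest, by its mean across the series. This gave values for 38 of the 39, out of 19775 genes measured in all. STAT2, which encodes a signalling partner of IRF9, has no probe set of its own in the annotation used here. The 38 comprised 5 interferon regulatory factors, 25 interferon-stimulated genes, 7 genes of MHC class I presentation and CD274, which encodes the checkpoint ligand PD-L1.

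The cells were DLD1, an established human colorectal adenocarcinoma line. One group of 3 cultures was exposed for 12 h to 10 µM SAH-BCL9B, a peptide built as a stabilized helix after the segment of BCL9 that binds beta-catenin, and the other group of 3 to the vehicle DMSO. RNA was hybridized to Affymetrix Human Genome U133 Plus 2.0 arrays, 1 for each culture, so every n below is 3 per group. The labels name no interferon treatment in either group, and the design has 1 line, 1 dose, 1 time and no control peptide.

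Type I and type III interferons act through receptors and JAK kinases on a complex that holds STAT2 and IRF9, which binds the interferon-stimulated response element in its target promoters. Interferon gamma acts through gamma-activated sequences, and IRF1 is a well-known target and a transcription factor in its own right. The stimulated genes encode proteins that block viral entry, translation or replication. MHC class I molecules pair with beta-2-microglobulin and present peptides that the TAP transporter brings into the endoplasmic reticulum. Epithelial tumour lines keep some of these genes active without added interferon.

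After SAH-BCL9B, the members moved in both directions and by little. IRF1, IRF9, ISG15, TAP1 and NLRC5 rose and IFITM1 and MX1 fell, by at most 1.44-fold (NLRC5). That is 7 of 38 members with a limma adjusted p of 0.05 or less, or 18.4%, against a background of 6.93% over all genes. Upward, 5 of 38 passed, where 3.49% of all genes did, and downward 2 of 38, where 3.43% did. The median log2 change was 0.09 over the members and 0.02 over all genes. The 3 SAH-BCL9B arrays lay wholly to one side of the 3 vehicle arrays in 18 of 38 members (47.4%), against 28.3% of all genes. They lay above in 11 members, where 16.3% of all genes did, and below in 7, where 12% did. Positive values were found in 24 of 38 members and in 55.1% of all genes. The list was drawn up with earlier results of these data known, so a difference from all genes may be built into it. These shares are therefore a description and not a test of the list. None of the 7 kept an adjusted p under 0.05 with each of the 6 arrays left out in turn. Their signs were the same in every alternative that tested them (15, and 14 for NLRC5, which a filter on low values leaves out). Few of these alternatives could have turned a sign. The groups did not overlap in any of the 7, so leaving out arrays could not, and several other settings keep the same change.

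Promoters of 6 of the 7 members that passed are shown with the matches to 2 elements known from interferon-responsive genes, and NLRC5 has no entry in the table. Sequences are RefSeq's of GRCh38.p14, from 250 bases before to 50 bases after the start, read 5′ to 3′ on the gene's strand. In the first 4, capitals mark the core of the interferon-stimulated response element, GAAA and again GAAA with 2 bases of any kind (NN) between them, or its reverse complement, TTTC and TTTC around NN. The first 2 belong to genes that rose and the next 2 to genes that fell.
ISG15 (chr1:1013247-1013546, plus strand): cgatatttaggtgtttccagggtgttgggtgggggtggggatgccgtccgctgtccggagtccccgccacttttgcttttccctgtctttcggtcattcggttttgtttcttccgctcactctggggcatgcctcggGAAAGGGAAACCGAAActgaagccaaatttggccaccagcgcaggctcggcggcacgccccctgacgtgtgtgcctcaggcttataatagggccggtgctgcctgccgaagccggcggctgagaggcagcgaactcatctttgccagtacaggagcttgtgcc
TAP1 (chr6:32853655-32853954, minus strand): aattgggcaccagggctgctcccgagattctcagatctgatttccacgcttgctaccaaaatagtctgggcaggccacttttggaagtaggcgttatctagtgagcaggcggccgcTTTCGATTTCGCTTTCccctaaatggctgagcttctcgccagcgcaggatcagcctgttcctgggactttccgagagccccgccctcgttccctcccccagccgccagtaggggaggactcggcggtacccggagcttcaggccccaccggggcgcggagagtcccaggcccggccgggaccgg
MX1 (chr21:41420308-41420607, plus strand): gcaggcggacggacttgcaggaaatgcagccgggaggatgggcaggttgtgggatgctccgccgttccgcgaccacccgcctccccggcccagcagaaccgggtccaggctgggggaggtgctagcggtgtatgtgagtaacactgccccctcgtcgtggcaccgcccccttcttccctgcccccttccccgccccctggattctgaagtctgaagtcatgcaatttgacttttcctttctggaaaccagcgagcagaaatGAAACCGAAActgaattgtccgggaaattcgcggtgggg
IFITM1 (chr11:313790-314089, plus strand): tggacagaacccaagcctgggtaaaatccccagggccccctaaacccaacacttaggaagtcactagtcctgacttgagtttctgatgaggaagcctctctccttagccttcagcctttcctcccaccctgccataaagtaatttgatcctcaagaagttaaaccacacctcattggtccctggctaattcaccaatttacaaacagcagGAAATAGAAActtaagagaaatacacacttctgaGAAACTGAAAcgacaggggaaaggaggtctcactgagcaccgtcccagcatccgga
IRF9 and IRF1 hold no such match in this window. Capitals in them mark TTCNNNGAA, the gamma-activated sequence, which reads alike on both strands. These 2 were added after the values were seen.
IRF9 (chr14:24161015-24161314, plus strand): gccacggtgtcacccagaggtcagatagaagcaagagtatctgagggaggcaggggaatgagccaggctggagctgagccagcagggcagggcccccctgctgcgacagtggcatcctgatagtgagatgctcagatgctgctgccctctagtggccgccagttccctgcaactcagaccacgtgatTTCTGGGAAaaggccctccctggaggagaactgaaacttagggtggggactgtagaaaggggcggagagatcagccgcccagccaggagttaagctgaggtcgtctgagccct
IRF1 (chr5:132490724-132491023, minus strand): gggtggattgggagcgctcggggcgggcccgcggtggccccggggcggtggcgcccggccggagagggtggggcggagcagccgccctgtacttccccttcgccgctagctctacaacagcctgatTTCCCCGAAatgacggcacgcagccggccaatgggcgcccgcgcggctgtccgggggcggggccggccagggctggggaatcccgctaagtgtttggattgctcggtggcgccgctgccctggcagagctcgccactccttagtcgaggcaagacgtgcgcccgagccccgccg
In ISG15 and TAP1 the 2 matches overlap each other, and in IFITM1 they lie apart. MX1 has 3 promoters in the table and TAP1 has 2, of which 1 each is shown.

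RefSeq's table held a promoter for 29 of the 39 listed genes. At least 1 promoter with this core element on either strand was found for 22 of 29 (75.9%), against 1195 of 27305 genes in the table (4.38%). The list was chosen for genes of this kind, so that difference was built into it. Within the list, the core stood in 2 of the 4 genes that rose and have an entry, in both genes that fell and in 18 of 22 that did not pass. TTCNNNGAA was found for 10 of 29 (34.5%), against 9.38% of all genes in the table, and for 3 of the 4 that rose, both that fell and 5 of the 22 that did not pass. The remaining entry, the unmeasured STAT2, held neither. A match of these letters is a description of the sequence and says nothing about binding in these cells.

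DLD1 cells showed bright signals of most epithelial markers. The epithelial cell adhesion gene EPCAM averaged log2 14.59 ± 0.20 with SAH-BCL9B and 14.44 ± 0.11 with vehicle (SD). Of 8 epithelial markers the keratin gene KRT8 rose by 0.50 on the log2 scale (limma adjusted p = 0.0113) and the villin gene VIL1 fell by 0.86 (0.00303), and whether either moved with the members was not tested. Means of the 6 measured leukocyte markers ran from 4.35 to 6.55 with SAH-BCL9B and from 4.28 to 6.55 with vehicle, all below the array medians of 6.58 to 6.62 in vehicle cells. Fibroblast and endothelial markers ran from 4.22 to 8.67 and from 4.19 to 8.55 in the same order of groups, and none of these 13 markers passed the test. The fibroblast marker COL1A1 had the highest of these means, 8.67 with SAH-BCL9B and 8.55 with vehicle, and PECAM1 and PDGFRB also lay above the array medians. The arrays measured RNA of whole cultures, so fewer cells with a transcript and less of it per cell cannot be told apart. One array stood somewhat apart: SAH-BCL9B 2 correlated with the others at 0.987 to 0.991 over all probe sets, while each of the other 5 had a partner at 0.995 or above. The 3′ minus 5′ difference of the ACTB control probe sets was 0.74 on that array, against 1.20 to 1.38 on the other 5.

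**Figure D1:**
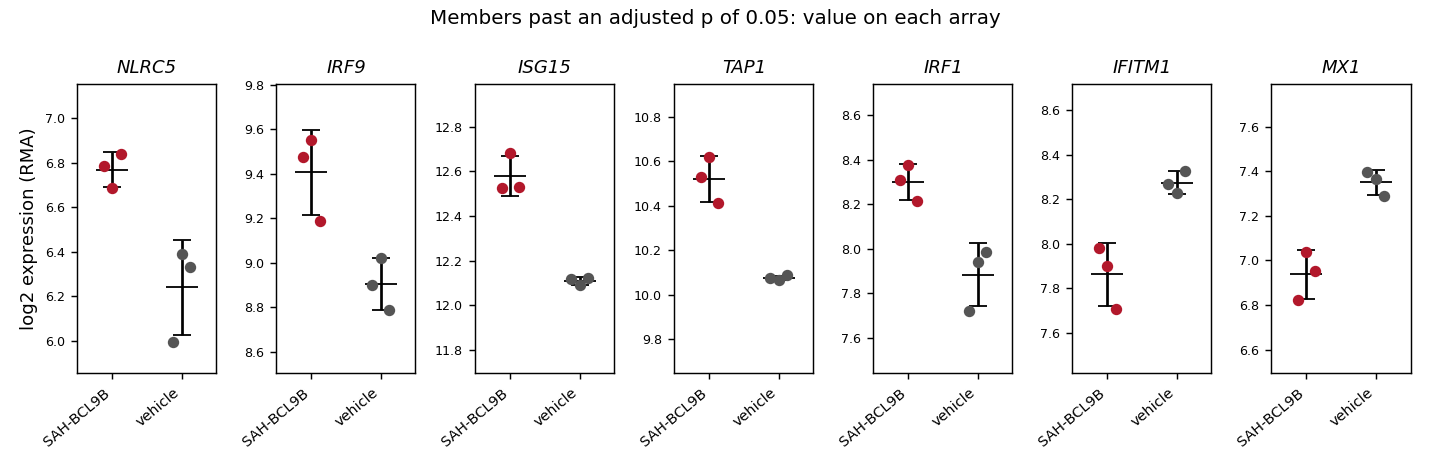
Log2 expression of the 7 members past an adjusted p of 0.05 on each array, SAH-BCL9B left and vehicle right (points, arrays 1 to 3 from left to right; bar and whiskers, mean ± SD; each panel spans the same log2 range). The groups do not overlap in any of the 7, and the spread among arrays is smallest in the vehicle values of ISG15 and TAP1.

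Among the regulators, IRF1, a transcription factor best known as a target of interferon gamma, rose. Its log2 level was 8.31, 8.38 and 8.22 in SAH-BCL9B cells, against 7.72, 7.94 and 7.99 in vehicle cells. The lowest SAH-BCL9B array stood above the highest vehicle array. The change was 0.42 ± 0.10 (SE), or 1.33-fold, with a limma adjusted p of 0.0415. Leaving out any single array ended the call of IRF1 (adjusted p 0.0635 to 0.155). Its other probe set, which was dimmer, had a change of 0.33, and the mean of both missed the threshold too (0.37, adjusted p = 0.127).

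IRF9, the DNA-binding subunit of the STAT2 complex, rose to a similar degree. Its level was 9.48, 9.55 and 9.19 in SAH-BCL9B cells and 8.90, 9.02 and 8.79 in vehicle cells. Here the groups did not overlap either, although SAH-BCL9B 3 lay nearer to the highest vehicle array than to its 2 partners. The change was 0.50 ± 0.11 (SE), or 1.42-fold (limma adjusted p = 0.0408). It passed without SAH-BCL9B 3 (adjusted p = 0.0407) and missed the threshold without any other single array (0.0721 to 0.14).

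The remaining factors did not pass. IRF7, which amplifies type I interferon production, was at 9.89, 9.88 and 9.72 in SAH-BCL9B cells, against 9.65, 9.62 and 9.48 in vehicle cells, a difference of 0.25 without overlap (limma adjusted p = 0.141). IRF3, the factor that viral sensors activate first, differed by 0.24 (0.257), also without overlap. IRF2, which often opposes IRF1, differed by 0.22 with overlap (0.271). The 5 measured factors thus all had positive values, where 55.1% of all genes did, with a median of 0.25. Each of the 5 kept its sign in all 15 alternatives, though leaving out arrays cannot turn it where the groups do not overlap.

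ISG15 encodes a ubiquitin-like protein that is attached to other proteins during the interferon response. It had the lowest adjusted p of the list. Its level was 12.53, 12.68 and 12.53 in SAH-BCL9B cells, against 12.12, 12.09 and 12.12 in vehicle cells. Arrays within the vehicle group differed by far less than the groups did. The change was 0.47 ± 0.08 (SE), or 1.39-fold (limma adjusted p = 0.0136), and ISG15 missed the threshold without vehicle 1 (0.0708) or vehicle 2 (0.0598). USP18, the protease that removes ISG15 from its targets and restrains receptor signalling, was at 8.18, 8.26 and 8.30 in SAH-BCL9B cells and at 8.26, 8.19 and 8.27 in vehicle cells. The groups overlapped, and the change was 0.01 with a 95% interval of -0.16 to 0.18.

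**Figure D2:**
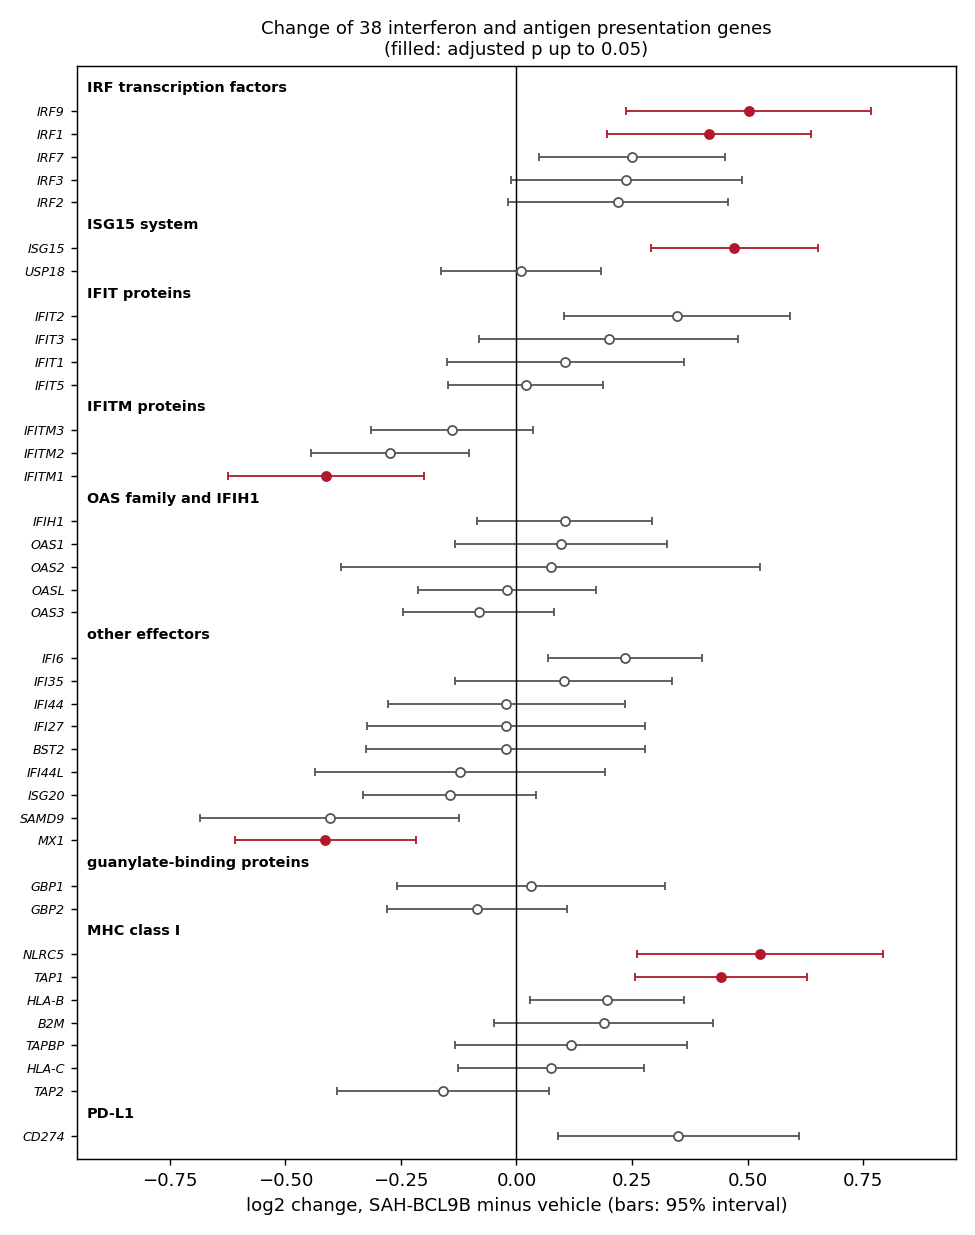
Log2 change of the 38 measured members, SAH-BCL9B minus vehicle, by role (points; bars, 95% intervals from limma without adjustment; filled red, adjusted p up to 0.05). The 5 regulatory factors and the 4 IFIT genes all lie right of 0 and the 3 IFITM genes left of it. Of all genes, 55.1% had positive values.

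Genes of proteins that hold viral RNA or membranes in check are given by family, and differences between families were not tested. The 4 IFIT genes are neighbours on chromosome 10 whose proteins bind viral RNA and hinder its translation. All 4 had positive values, where 55.1% of all genes did, and none of the 4 passed. IFIT2 had the largest, with 8.46, 8.23 and 8.42 in SAH-BCL9B cells against 8.01, 8.18 and 7.88 in vehicle cells, a difference of 0.35 without overlap (limma adjusted p = 0.0992). It passed under 2 of 15 alternatives, and its second probe set differed by 0.14. IFIT3, IFIT1 and IFIT5 differed by 0.20, 0.11 and 0.02, all with overlap.

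The 3 IFITM genes, neighbours on chromosome 11 whose membrane proteins restrict the entry of enveloped viruses, had negative values. In each the SAH-BCL9B arrays lay wholly below the vehicle arrays, where 12% of all genes did. IFITM1 fell: its level was 7.98, 7.90 and 7.71 in SAH-BCL9B cells, against 8.27, 8.23 and 8.33 in vehicle cells. The change was -0.41 ± 0.09 (SE), 1.33-fold, with a limma adjusted p of 0.0378. It passed without SAH-BCL9B 2 (0.0496) and missed the threshold without any other single array (0.0599 to 0.136). IFITM2 was at 12.72, 12.75 and 12.64 in SAH-BCL9B cells and at 13.01, 12.97 and 12.94 in vehicle cells. Its difference of -0.27 did not pass (adjusted p = 0.0708), but did under 3 of 15 alternatives. IFITM3 was at 13.35, 13.44 and 13.29 in SAH-BCL9B cells and at 13.48, 13.48 and 13.53 in vehicle cells, a difference of -0.14 (0.352). The 3 genes are close in sequence, and the probe sets of IFITM2 and IFITM3 carry the maker's suffix for probes that may bind other transcripts, so the 3 values may share signal. The probe sets of IFITM1, and of ISG15 and TAP1 among the members that rose, carry the suffix for probes common to several transcripts, which may be of the same gene or of others.

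MX1 encodes a dynamin-like GTPase that traps viral nucleocapsids, and it fell as well. Its level was 6.82, 7.04 and 6.95 in SAH-BCL9B cells, against 7.40, 7.37 and 7.29 in vehicle cells. No SAH-BCL9B array reached the lowest vehicle array. The change was -0.41 ± 0.09 (SE), 1.33-fold (limma adjusted p = 0.0269). MX1 passed without SAH-BCL9B 2 (0.0238) and missed the threshold without any other single array (0.0613 to 0.128). SAMD9, an antiviral factor that inhibits translation, was at 8.85, 8.59 and 9.05 in SAH-BCL9B cells and at 9.21, 9.32 and 9.16 in vehicle cells. Its difference was nearly as large, -0.40 without overlap, but the SAH-BCL9B arrays were more spread and it did not pass (adjusted p = 0.0953). It passed under 3 of 15 alternatives, and its second probe set differed by -0.17.

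The OAS enzymes make a messenger that activates RNase L, and IFIH1 senses long double-stranded RNA. None of these 5 passed, and their log2 changes ran from -0.08 for OAS3 to 0.10 for IFIH1. Probe sets disagreed in sign for OAS1, OAS2 and OAS3. With the mean of all probe sets, OAS1 gave -0.05 and OAS3 0.13. OAS2 gave a difference of 0.07 from dim values of 5.66, 6.24 and 5.44 in SAH-BCL9B cells, against 5.82, 5.50 and 5.81 in vehicle cells. The value of 6.24 came from SAH-BCL9B 2, and without that array the difference was -0.15.

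None of the remaining effectors passed. IFI6, a mitochondrial and endoplasmic reticulum protein that opposes apoptosis, was at 10.19, 10.28 and 10.27 in SAH-BCL9B cells and at 10.01, 10.04 and 10.00 in vehicle cells. This difference of 0.23 without overlap did not pass (limma adjusted p = 0.101), but did under 2 of 15 alternatives. The exonuclease gene ISG20 differed by -0.14 without overlap (0.372). IFI27, IFI35, IFI44L, IFI44 and BST2, which encodes the virus tether tetherin, differed by -0.12 to 0.10 with overlap. Of these, IFI44L, IFI44 and BST2 were dim, with vehicle means of 4.15, 4.33 and 6.07, and lay below the median of all probe sets on each of the 6 arrays. The vehicle mean of IFI35, 6.56, also lay below the medians of the vehicle arrays. The guanylate-binding protein genes GBP1 and GBP2, strongly induced by interferon gamma in many cells, differed by 0.03 and -0.08. Both were dim in vehicle cells, at 4.73 ± 0.08 and 4.36 ± 0.12 (SD), below the median of all probe sets on each of the 6 arrays. RMA is known to shrink the changes of dim probe sets.

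**Figure D3:**
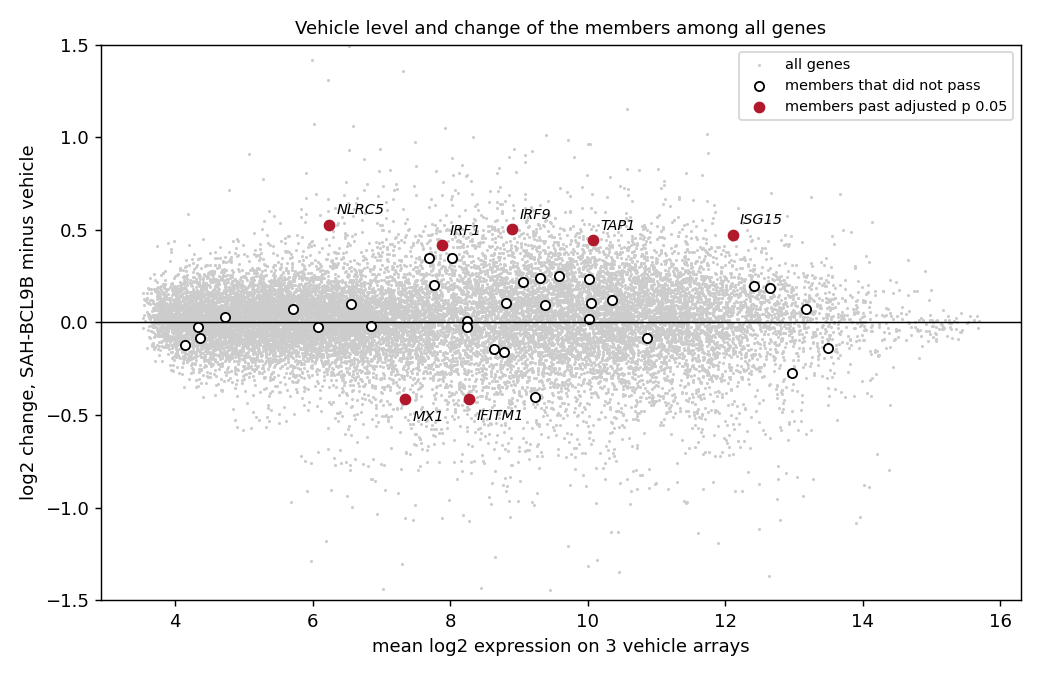
Mean log2 expression in vehicle cells (x) against log2 change, SAH-BCL9B minus vehicle (y), for all 19775 genes (grey), members that did not pass (open) and the 7 members past the threshold (red, named). The members lie between 4.15 and 13.50 in vehicle cells, with other genes on both sides of that range, and 19 genes lie more than 1.5 from 0, beyond the plotted range.

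On the antigen presentation side, NLRC5 had the largest change of the list. It encodes the transactivator of MHC class I genes. Its level was 6.78, 6.68 and 6.84 in SAH-BCL9B cells, against 6.00, 6.39 and 6.33 in vehicle cells. The lowest of the 6 values, from vehicle 1, lay well under its 2 partners. The change was 0.53 ± 0.12 (SE), or 1.44-fold (limma adjusted p = 0.0343). It was 0.41 without vehicle 1, where it missed the threshold (0.0989). NLRC5 passed without SAH-BCL9B 2 (0.0409) and missed it without any other single array (0.0558 to 0.118). Its vehicle mean of 6.24 lay below the array medians.

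TAP1 encodes 1 of the 2 subunits of the peptide transporter, and it rose. Its level was 10.53, 10.62 and 10.41 in SAH-BCL9B cells, against 10.07, 10.07 and 10.09 in vehicle cells. The vehicle arrays were almost identical and stood apart from every SAH-BCL9B array. The change was 0.44 ± 0.08 (SE), or 1.36-fold (limma adjusted p = 0.0182). TAP1 missed the threshold without SAH-BCL9B 1 (0.0674), vehicle 1 (0.0898), vehicle 2 (0.0748) or vehicle 3 (0.0571).

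Its partner gene TAP2 was at 8.77, 8.45 and 8.67 in SAH-BCL9B cells and at 8.73, 8.86 and 8.78 in vehicle cells, a difference of -0.16 with overlap (limma adjusted p = 0.429). The 4 probe sets of TAP2 split in sign, from -0.16 to 0.22. Whether TAP1 and TAP2 differed in response was not tested. PSMB9, an immunoproteasome gene that is known to share a promoter region with TAP1, was at 9.66 ± 0.06 in SAH-BCL9B cells and 9.64 ± 0.03 in vehicle cells (SD), a difference of 0.02 (adjusted p = 0.923). It was chosen after its value was seen.

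The class I molecules themselves had bright signals and small positive values that did not pass. HLA-B, a classical heavy chain gene, was at 12.64, 12.64 and 12.59 in SAH-BCL9B cells and at 12.37, 12.44 and 12.46 in vehicle cells. The difference of 0.20 was without overlap (limma adjusted p = 0.16), and the 3 probe sets gave 0.15 to 0.20. HLA-C differed by 0.07 with overlap, and its 4 probe sets by 0.07 to 0.15. All 7 of these probe sets carry the suffix for probes that may bind other transcripts, and class I heavy chain genes are alike in sequence. B2M, which encodes beta-2-microglobulin, was at 12.99, 12.70 and 12.86 in SAH-BCL9B cells and at 12.74, 12.72 and 12.52 in vehicle cells, a difference of 0.19 (0.353). TAPBP, which encodes tapasin, the bridge between TAP and class I, differed by 0.12, and 1 of its 3 probe sets had the opposite sign, -0.23.

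CD274 was at 8.10, 8.11 and 7.91 in SAH-BCL9B cells, against 7.68, 7.88 and 7.51 in vehicle cells. The groups did not overlap, and the difference was 0.35 with a 95% interval of 0.09 to 0.61 before adjustment (limma adjusted p = 0.115). The second probe set of CD274 differed by 0.04. It passed under none of the 15 alternatives, with adjusted p values of 0.0574 to 0.515.

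**Figure D4:**
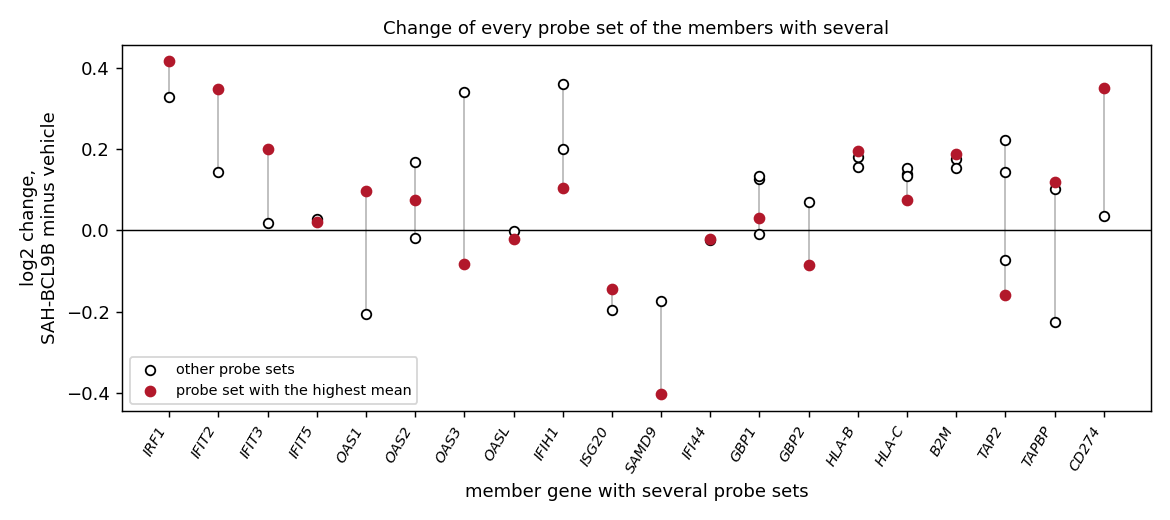
Log2 change, SAH-BCL9B minus vehicle, of every probe set of the 20 members that have several (red, the brightest, used for the gene; open, the others; the line spans them). In 13 of the 20 all probe sets share a sign, and in 7 (OAS1, OAS2, OAS3, GBP1, GBP2, TAP2 and TAPBP) at least 1 lies across 0 from the brightest.

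In 20 members several probe sets could be compared, 69 probe sets over all 38. In 13 of the 20 all had 1 sign. None of the 7 members with a sign conflict was among those that passed. When every probe set was tested by itself, 1 each of ISG15 and TAP1 passed among the 69, where 1554 of all 41091 did. None of the 69 passed downward. IRF1 was the only member past the threshold with a second probe set to set beside the first.

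**Figure D5:**
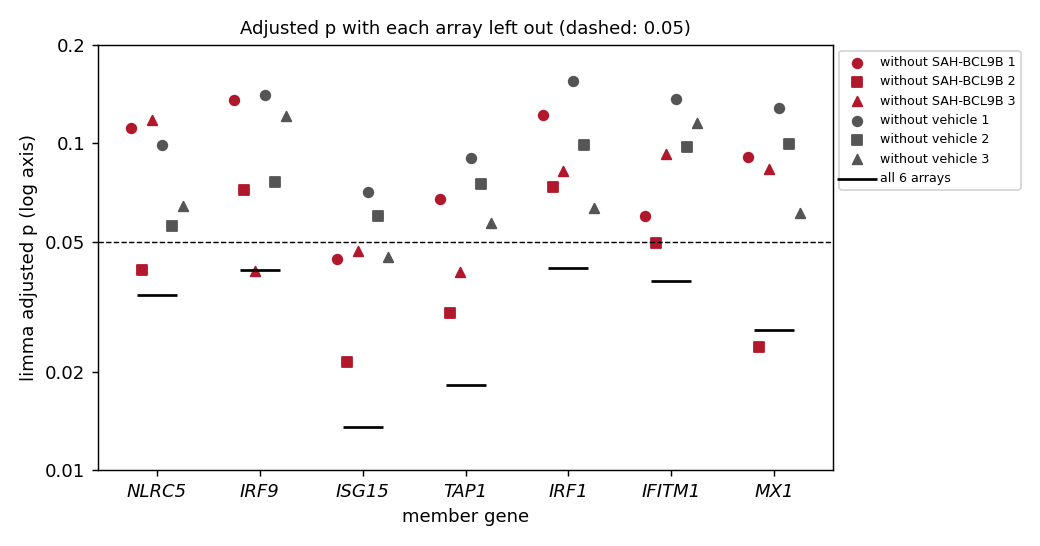
Limma adjusted p (log axis) of the 7 members past the threshold, with all 6 arrays (black bars) and with each array left out (symbols; red, a SAH-BCL9B array left out; grey, a vehicle array left out; dashed line, 0.05). ISG15 stays under the line in 4 of 6 fits, TAP1 in 2, and IRF1 in none.

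In the plot of adjusted p with each array left out, every array bore on these calls. Leaving out vehicle 1 or vehicle 2 ended all 7, leaving out SAH-BCL9B 1 or vehicle 3 left ISG15 as the 1 call, and without SAH-BCL9B 3 there were 3 up and 0 down. Over all genes the number past the threshold was 1370 with all 6 arrays. It dropped to 514 when SAH-BCL9B 1 was left out and to 522 for SAH-BCL9B 3. For the vehicle arrays it dropped to 316 when the first was left out, 518 for the second and 692 for the third. Without SAH-BCL9B 2, the array that stood apart, the number over all genes was 1426, above that with all 6 arrays. In that fit 3 members rose (ISG15, TAP1 and NLRC5) and 2 fell (IFITM1 and MX1).

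The rest of the pathway was read from 7 further lists with 89 measured genes, of which 1 rose and 2 fell, or 3.37%, below the 6.93% of all genes. Of 9 receptor and JAK kinase genes, IFNAR1, a type I receptor subunit gene, rose. Its level was 9.46, 9.43 and 9.42 in SAH-BCL9B cells, against 9.07, 9.19 and 8.96 in vehicle cells. The change was 0.36 ± 0.08 (SE, limma adjusted p = 0.043). Leaving out any single array ended the call (0.0612 to 0.16), and the mean of its 4 probe sets gave 0.09 (0.596).

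Of 29 other interferon-stimulated genes none rose and 2 fell, or 6.9%, near the 6.93% of all genes, and the median was 0.06. HERC5, which encodes a ligase for ISG15, was at 8.76, 8.84 and 8.88 in SAH-BCL9B cells and at 9.25, 9.28 and 9.06 in vehicle cells, a change of -0.37 ± 0.09 (SE, limma adjusted p = 0.0475). UBE2L6, which encodes a conjugating enzyme for ISG15, was at 8.03, 8.03 and 8.02 in SAH-BCL9B cells and at 8.31, 8.43 and 8.36 in vehicle cells, a change of -0.34 ± 0.07 (0.0321). Neither pair of groups overlapped. HERC5 missed the threshold without any single array except vehicle 3 (0.0673 to 0.19), and UBE2L6 without any except SAH-BCL9B 2 (0.0886 to 0.128).

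In the other 5 lists none passed in limma's test. These were 7 negative regulators, 12 sensors and adaptors, 9 interferon ligands, 13 further genes of class I presentation and 10 MHC class II genes. Unadjusted p values under 0.05 were found for 1, 2, 0, 2 and 0 of them in that order, against 21.4% of all genes. Under some alternatives 1 or 2 of the further class I presentation genes passed, and 1 each of the sensors and adaptors and of the MHC class II genes. All 9 interferon ligand genes lay below the median of all probe sets on each of the 6 arrays, with group means of 3.88 to 5.64 in SAH-BCL9B cells and 3.77 to 5.66 in vehicle cells. Whether any ligand is expressed cannot be read from these values, since signal over background is unknown.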

How the data were processed

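The 6 arrays form 1 comparison, 3 SAH-BCL9B against 3 vehicle, with group and replicate number taken from the sample titles. The values the authors deposited are log2 expression levels of 54675 probe sets from RMA in affy, per the submitters' processing notes, with settings not given in the sources used here. This method corrects background, makes the arrays alike in distribution and summarises probes, so a shift common to most genes is hidden. Detection calls were not used here, which leaves the margin over background unknown.

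GEO's platform annotation gave gene names, and of the 41091 probe sets naming 1 gene, 41037 had an Entrez ID held in RefSeq's GRCh38.p14 table. Of the 54675, 62 were controls, 1801 named several genes and 11721 were unnamed here. Group means were compared for all 19775 genes with limma 3.58.1 in R 4.3.3 (lmFit, eBayes, no covariates), adjusting by Benjamini-Hochberg across every gene, with a threshold of 0.05 and no filter on low values. Errors are limma's SE for a change and SD over 3 arrays for a mean. Motif searches used Python 3.11.15 and plots matplotlib 3.10.9. The procedure was tested on simulated data. The number of arrays limits the precision.

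All 39 members are named by rule. In the other lists genes past the threshold are named, and PSMB9, COL1A1, PECAM1, PDGFRB, KRT8, VIL1 and the promoters of IRF1 and IRF9 were added after values were seen. The members and lists were chosen with earlier results of these data known. Proteins of the IFITM genes are not shown, since no protein sequences were used here.

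Other settings tried were the title's replicate number as a block, a filter keeping genes above the median of all probe sets, the mean of all probe sets, each probe set tested by itself, median centring, a variance trend with robust fit, and each array left out. Added after seeing the data were leaving out SAH-BCL9B 2 and vehicle 3 together, and the ACTB 3′ minus 5′ difference or the SD of each array as a covariate. Whether the title numbers pair the cultures is not known. Deviations from the group mean correlated at 0.24, -0.20 and -0.32 between the groups for numbers 1, 2 and 3. The highest correlation of the same SAH-BCL9B arrays with a vehicle array of another number was 0.11, 0.42 and 0.21. With 3 arrays per group these values cannot decide it.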

Additional observations from a re-analysis of the deposited data

How the results depend on the processing

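The 7 members past the threshold kept their sign in every alternative that tested them, though few of these could have turned it. The count of 5 up and 2 down was not stable. With each array left out it ran from 0 to 3 up and from 0 to 2 down, and over all genes from 316 to 1426, against 1370 with all 6 arrays. The replicate number as a block left 0 up, 0 down and 296 over all genes (limma adjusted p 0.0609 to 0.117 for the 7), and whether the numbers pair the cultures is not known. The filter on low values gave 6 up, 4 down and 2270 over the genes it kept, a smaller set without NLRC5 and other members. The variance trend with robust fit gave 7 up, 4 down and 2456 over all genes. Array SD as a covariate gave 6 up, 4 down and 2441 over all genes. Each probe set by itself gave 2 up and 0 down of 69 member probe sets, where 1554 of 41091 passed. The ACTB covariate gave 2 up, 2 down and 1487 over all genes, with a member median of 0.026. Without SAH-BCL9B 2 and vehicle 3 there were 3 up, 1 down and 1194 over all genes, with a member median of 0.023. The settings with a covariate or without 2 arrays were chosen after seeing the data. The cause of the differences was not tested. The other 5 members that passed under some alternative were IFIT2, IFITM2, SAMD9, IFI6 and HLA-B.

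Signs turned in 13 members, none of which had passed, and in PSMB9. Averaging a gene's probe sets gave -0.055 for OAS1, 0.13 for OAS3, 0.034 for TAP2 and -0.0017 for TAPBP. Without SAH-BCL9B 2 and vehicle 3 it was -0.012 for IFIT5, -0.011 for OAS1, -0.11 for OAS2, 0.064 for OASL, 0.0045 for IFI27, 0.0080 for IFI44 and -0.15 for GBP1. With the ACTB covariate it was -0.17 for OAS2, 0.0099 for OASL, 0.033 for IFI44, -0.089 for GBP1, -0.0082 for HLA-C, -0.011 for TAPBP and -0.012 for PSMB9. With each array left out, the change ran from -0.017 to 0.045 for USP18, -0.0078 to 0.039 for IFIT5, -0.15 to 0.24 for OAS2, -0.065 to 0.025 for OASL, -0.16 to 0.11 for BST2, -0.17 to 0.054 for IFI27, -0.14 to 0.040 for IFI44, -0.10 to 0.13 for GBP1 and -0.0099 to 0.055 for PSMB9. The filter on low values left out NLRC5, OAS2, BST2, IFI44, IFI44L, GBP1 and GBP2.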
